A study of Mus musculus with 28 samples.

Results

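The transcription factor p53 and 9 genes it is known to control were followed through whole mouse liver. Trp53 encodes p53 itself, and the other 9 genes are Cdkn1a, Mdm2, Ccng1, Gdf15, Phlda3, Eda2r, Trp53inp1, Btg2 and Bax. They were taken by gene symbol, and each of the 10 symbols matched 1 of the 32544 rows in the male count table and 1 in the female count table. Rows were selected on gene symbol, with no threshold on a measured value. The set itself was chosen by a proposal made with earlier results of these livers in view, and which values it drew on is not recorded, so the p-values given for these genes are not independent evidence.

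The livers came from 28 C57BL/6 mice, 1 library per mouse, in 8 groups by sex, genotype and diet with 4 males or 3 females in each. Floxed control mice (CT) and mice in which c-Myc was removed from endothelial cells (KO) had all been injected with tamoxifen, which switches on the Cre recombinase, at 5 weeks of age. After a further 2 weeks they ate either control food low in fat (CTD) or food rich in fat and cholesterol (HFC) for 5 weeks. The labels give the age as 13 weeks, 1 week more than these steps add to. The promoter that drives Cre is not given in the sources used here, nor is whether CT mice carry Cre. Animal numbers run from 298 to 320 on CTD and from 412 to 543 on HFC. Diet therefore cannot be told apart from anything that follows these numbers, such as a cohort. Among females on HFC the numbers also differ by genotype, 412, 413 and 419 in KO against 420, 510 and 512 in CT. The p-values measure the spread between these mice.

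The protein p53 is made continuously and destroyed quickly, because MDM2, which p53 itself induces, marks it for degradation. DNA damage, oncogene activity or metabolic stress stabilise p53, which then binds DNA as a tetramer and raises transcription of genes that stop the cell cycle, repair damage or trigger cell death. In liver, p53 and its target p21, the product of Cdkn1a, are known for restraining hepatocyte division after injury and for their induction in fatty liver disease. Several of these genes, Gdf15, Cdkn1a, Trp53inp1 and Btg2 among them, also answer to other signals such as the integrated stress response, growth factors and feeding.

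Libraries held 22154774 to 22652285 counts in males and 18741939 to 19195502 in females. Levels below are CPM, counts divided by library size, here scaled by TMM factors that correct for library make-up. These factors were at most 0.999 on CTD and higher in every HFC library. With plain library totals the median diet difference over all tested genes moved from between -0.02 and 0.02 to between 0.22 and 0.32 on the log2 scale, so rises are relative to the TMM scale. All 10 genes passed the filter on low counts in both tables. In females Eda2r passed through the HFC mice alone, since 1 of 6 CTD livers reached the minimum of 0.526 CPM. Whole-liver Myc ranged from 3.09 to 20.1 CPM in males and from 4.37 to 20.5 CPM in females and does not check a deletion in endothelial cells. The hepatocyte markers Alb, Apoa1, Ttr, Serpina1c and Hnf4a together held at least 64092 CPM in every liver.

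The DNA letters that p53 recognises are shown for Cdkn1a and Ccng1, whose windows held the longest matches, and for the genes with a shorter one. RefSeq promoter windows on GRCm38.p6, from 250 bases before to 50 bases after each start, existed for 9 of the 10 genes, 11 windows in all. They were searched for the p53 half-site consensus of 10 bases, which is its own reverse complement, so 1 strand covers both. Capitals mark 20 bases made of adjoining half-sites with at most 1 departure from the consensus, a search chosen after the Cdkn1a sequence was seen. The window of the upstream Cdkn1a start lies at chr17:29090729-29091028 on the + strand, and the capitals stand from 51 to 32 bases before the start.
Cdkn1a upstream window: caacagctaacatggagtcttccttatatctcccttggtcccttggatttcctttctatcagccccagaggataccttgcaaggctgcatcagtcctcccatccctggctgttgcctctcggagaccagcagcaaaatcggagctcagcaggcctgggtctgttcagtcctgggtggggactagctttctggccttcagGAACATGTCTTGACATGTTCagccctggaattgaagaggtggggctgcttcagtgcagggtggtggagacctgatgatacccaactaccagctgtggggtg

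Of 32851 windows of this length 29 (0.0883%) held such adjoining half-sites, and 2745 (8.36%) held at least a single half-site. Among the 10 genes Ccng1 was the other one with adjoining half-sites, and Mdm2, Bax and Trp53 held a single half-site each. The next lines show these with 10 bases on either side, 5′ to 3′ on the strand of the gene, with the match in capitals.
Ccng1, chr11:40755462-40755481, - strand: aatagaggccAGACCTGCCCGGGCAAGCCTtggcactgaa
Mdm2, chr10:117710935-117710944, - strand: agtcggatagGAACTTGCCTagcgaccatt
Bax, chr7:45467090-45467099, - strand: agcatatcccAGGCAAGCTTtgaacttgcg
Trp53, chr11:69580284-69580293, + strand: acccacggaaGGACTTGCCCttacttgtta
The windows of Btg2, Eda2r, Gdf15 and Phlda3 and the internal Cdkn1a start held no half-site, which says only that these letters are not in those windows. Members with and without a match are both found among the genes that rose with diet below.

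Across the set, 4 genes rose with HFC in CT males (Gdf15, Eda2r, Bax and Trp53), 3 in KO males (Eda2r, Bax and Trp53), 3 in CT females (Cdkn1a, Phlda3 and Eda2r) and 6 in KO females (Cdkn1a, Phlda3, Eda2r, Bax, Ccng1 and Mdm2), and 0 fell in any of the 4 comparisons. The test was edgeR's quasi-likelihood F test at an adjusted p under 0.05 over all genes. Of all tested genes 20% were called in CT males (10.6% higher and 9.4% lower on HFC), 29.1% in KO males (15.5% higher and 13.6% lower), 2.19% in CT females (0.936% higher and 1.26% lower) and 8.59% in KO females (3.94% higher and 4.65% lower). In KO males 3 of 10 is near the background of 29.1% and is not read as a result about the set, and 4 of 10 in CT males stands beside 20%. The median log2 difference of the 10 genes was 0.43 and 0.45 in CT and KO males and 0.46 and 0.58 in CT and KO females, against all-gene medians between -0.02 and 0.02. In whole liver, fewer cells of a type and less RNA per cell cannot be told apart. Male and female diet effects were not tested against each other.

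**Figure D1:**
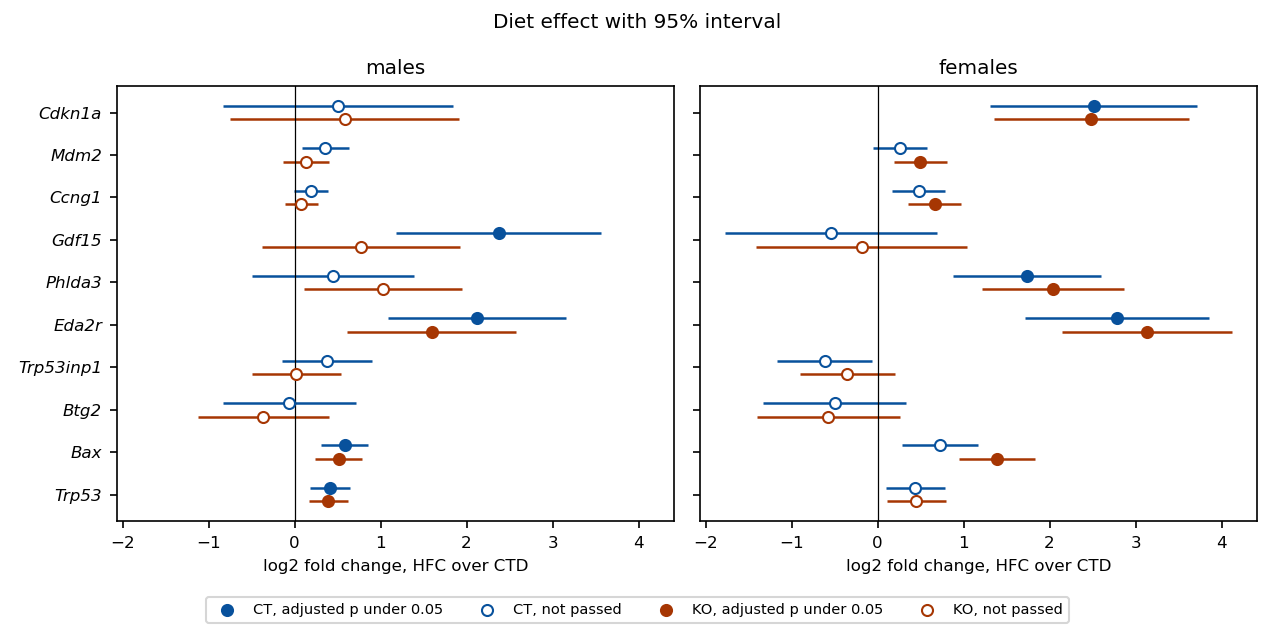
Log2 difference between HFC and CTD (x axis) for each gene (y axis) in males (left) and females (right), with 95% intervals from edgeR. Blue is CT and brown is KO, and filled points passed at an adjusted p under 0.05. Cdkn1a is filled in both female comparisons at 2.51 and 2.48 and open in both male ones at 0.51 and 0.58.

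Cdkn1a (chromosome 17, 29090976 to 29100727, + strand) encodes the cyclin-dependent kinase inhibitor p21, the main arm by which p53 halts the cell cycle. CT females on CTD held 1.37, 2.86 and 2.50 CPM of Cdkn1a and CT females on HFC held 12.6, 13.1 and 13.0 CPM. KO females held 3.78, 6.55 and 2.32 CPM on CTD, against 41.8, 10.1 and 19.0 CPM on HFC. Every female HFC liver lay above every female CTD liver of either genotype, and the KO HFC livers were spread far more widely than the tightly grouped CT HFC ones. Cdkn1a rose 5.71-fold with HFC in CT females (95% interval 2.48 to 13.1, log2 2.51, SE 0.54, adjusted p = 0.0435). In KO females it rose 5.59-fold (2.55 to 12.3, log2 2.48, SE 0.51, adjusted p = 0.0158). The call in CT females is narrow: it held in 9 of 18 alternative fits, and the adjusted p reached 0.189 without CT CTD 306, while the log2 difference stayed between 2.26 and 2.80. The KO call held in 15 of 18 and was lost without KO CTD 307 (adjusted p = 0.0645) or KO CTD 317 (0.0537) and when only the 2 compared groups were fitted (0.0791).

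Males gave another picture for Cdkn1a, with wide spread inside every group. CT males held 2.82, 7.47, 16.1 and 9.74 CPM on CTD, against 6.87, 9.01, 19.3 and 15.98 CPM on HFC. KO males held 3.24, 13.4, 3.997 and 15.7 CPM on CTD, against 23.9, 7.05, 8.51 and 14.8 CPM on HFC. The diets overlapped in both genotypes, and single CTD livers reached the level of most HFC livers. The log2 difference was 0.51 in CT males (95% interval -0.83 to 1.84, adjusted p = 0.608) and 0.58 in KO males (-0.75 to 1.91, adjusted p = 0.521). Neither passed, and both intervals are wide. Part of the Cdkn1a exons, 273 bases, lies opposite AC167363.2 on the other strand, and whether counting used strand is not given in the sources used here.

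**Figure D2:**
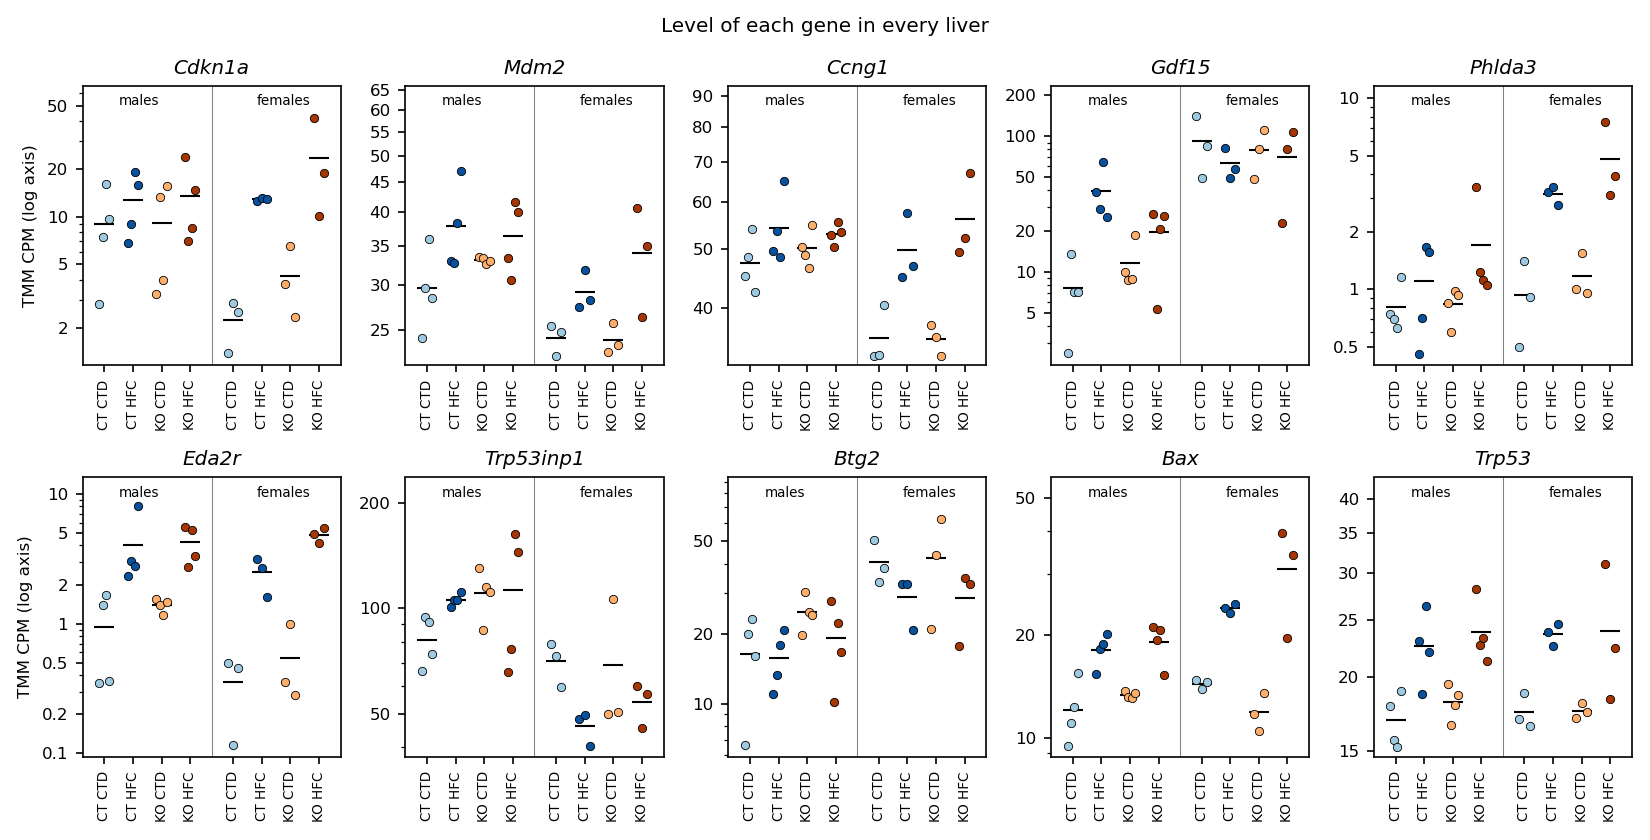
Level of each of the 10 genes in every liver, in TMM-scaled CPM on a log axis, with males left and females right of the line in each panel. Each point is 1 liver and each bar the group mean. Female Cdkn1a, Phlda3, Eda2r and Bax separate by diet in both genotypes, whereas male Cdkn1a spans 2.82 to 16.1 CPM within the CT CTD group alone.

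Mdm2 and Ccng1 are feedback genes of the pathway. MDM2 is the ubiquitin ligase that degrades p53, and cyclin G1, from Ccng1, works with a phosphatase that acts on MDM2. KO females held 23.0, 25.7 and 23.6 CPM of Mdm2 (chromosome 10, 117688875 to 117710758, - strand) on CTD, against 40.6, 26.4 and 34.9 CPM on HFC. The groups did not overlap, but KO HFC 413 lay just above the highest CTD liver. Mdm2 rose by log2 0.49 there (SE 0.14, adjusted p = 0.0484), a call that held in 3 of 18 alternatives, with adjusted p up to 0.173 without KO HFC 412. In CT females Mdm2 ranged from 22.6 to 25.4 CPM on CTD and from 27.4 to 31.8 CPM on HFC, without overlap and without passing (log2 0.26, adjusted p = 0.321). Male Mdm2 overlapped between diets in both genotypes, at log2 0.36 in CT (adjusted p = 0.0616) and 0.13 in KO (adjusted p = 0.469).

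Ccng1 (chromosome 11, 40748552 to 40755311, - strand) was at 37.5, 35.7 and 33.3 CPM in KO females on CTD and at 49.5, 52.3 and 66.9 CPM on HFC. All 3 HFC livers were above all 3 CTD livers, and Ccng1 rose by log2 0.66 (SE 0.14, adjusted p = 0.0131). This call was lost without KO CTD 317 (adjusted p = 0.0598), without KO HFC 419 (0.0537) and when only the compared groups were fitted (0.0525). CT females held 33.2, 33.3 and 40.4 CPM on CTD, against 45.0, 57.5 and 47.0 CPM on HFC, again without overlap, at log2 0.48 (SE 0.14, adjusted p = 0.0951). In males Ccng1 varied little, from 42.5 to 65.0 CPM over all 16 livers, and neither diet difference passed (log2 0.19 in CT and 0.08 in KO).

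Eda2r, Phlda3 and Bax belong to the arm of the pathway that limits survival. Eda2r encodes a receptor of the TNF receptor family, Phlda3 a small protein that blocks membrane recruitment of the kinase AKT, and Bax the effector that opens the outer mitochondrial membrane in apoptosis. Eda2r lies on chromosome X, 97333840 to 97377216, - strand. CT males held 0.347, 1.39, 1.66 and 0.359 CPM of Eda2r on CTD, against 2.35, 3.05, 2.79 and 8.01 CPM on HFC. KO males held 1.55, 1.39, 1.17 and 1.47 CPM on CTD, against 5.54, 2.75, 5.25 and 3.34 CPM on HFC. No CTD male of a genotype reached the HFC males of that genotype, and CT HFC 543 stood far above the other HFC controls. Eda2r rose by log2 2.12 in CT males (SE 0.49, adjusted p = 0.00688) and by 1.59 in KO males (SE 0.46, adjusted p = 0.0169; 0.0535 without KO HFC 414).

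Female Eda2r was low on CTD, at 0.500, 0.117 and 0.454 CPM in CT and 0.354, 0.999 and 0.283 CPM in KO livers. On HFC it was at 3.15, 2.68 and 1.60 CPM in CT and 4.93, 4.17 and 5.46 CPM in KO livers. Every KO HFC liver was above every CT HFC liver, and every HFC liver was above every CTD liver. Eda2r rose by log2 2.79 in CT females (SE 0.50, adjusted p = 0.0140) and by 3.13 in KO females (SE 0.46, adjusted p = 0.00175). The CT call was lost without CT CTD 308 (adjusted p = 0.0559), CT HFC 420 (0.0714) or CT HFC 510 (0.0571). Since female Eda2r entered the test through its HFC livers alone, these female differences and their part in the female counts are a description.

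Phlda3 (chromosome 1, 135766119 to 135769136, + strand) stood at 0.500, 1.40 and 0.907 CPM in CT females on CTD and at 3.25, 3.43 and 2.77 CPM on HFC. KO females held 1.003, 1.55 and 0.961 CPM on CTD, against 7.49, 3.13 and 3.91 CPM on HFC. The diets did not overlap in either genotype, and KO HFC 412, the liver with the highest Cdkn1a, was also the highest for Phlda3. Phlda3 rose 3.33-fold in CT females (95% interval 1.84 to 6.05, adjusted p = 0.0415) and 4.11-fold in KO females (2.31 to 7.29, adjusted p = 0.00706). The CT call held in 10 of 18 alternatives, with adjusted p up to 0.181 without CT CTD 306, and the KO call held in 18 of 18. Among males Phlda3 lay between 0.461 and 1.68 CPM in 15 of the 16 livers and at 3.42 CPM in KO HFC 414. Male KO livers did not overlap by diet, but the difference did not pass (log2 1.03, SE 0.43, adjusted p = 0.0846), and CT males overlapped (log2 0.45, adjusted p = 0.521).

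Bax (chromosome 7, 45461697 to 45466898, - strand) rose in 3 of the 4 comparisons. CT males held 9.46, 11.001, 12.3 and 15.4 CPM on CTD, against 15.3, 18.2, 18.7 and 20.04 CPM on HFC. KO males held 13.7, 13.1, 13.0 and 13.5 CPM on CTD, against 21.1, 19.2, 20.6 and 15.2 CPM on HFC. In CT males a single CTD liver, 320, just overlapped the lowest HFC liver, and in KO males the diets did not overlap. Bax rose by log2 0.58 in CT males (SE 0.13, adjusted p = 0.00518) and by 0.51 in KO males (SE 0.13, adjusted p = 0.00685), and both calls held in 22 of 22 alternatives. KO females held 11.7, 10.5 and 13.5 CPM on CTD, against 39.6, 19.5 and 34.2 CPM on HFC. All HFC livers were clearly higher, and Bax rose by log2 1.39 (SE 0.20, adjusted p = 0.00178), in 18 of 18 alternatives. CT females held 14.7, 13.8 and 14.6 CPM on CTD, against 23.8, 23.1 and 24.5 CPM on HFC. These groups were far apart for their spread, yet log2 0.73 (SE 0.20) gave an adjusted p of 0.0787. Bax shares 192 exon bases with Gm45808 on the same strand, so reads there could be split between them.

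Trp53 (chromosome 11, 69580359 to 69591873, + strand) encodes p53, whose activity is set mainly through protein stability rather than RNA. CT males held 17.9, 15.7, 15.2 and 19.0 CPM on CTD, against 23.0, 18.8, 26.4 and 22.1 CPM on HFC. KO males held 19.5, 16.6, 17.9 and 18.6 CPM on CTD, against 28.2, 22.7, 23.3 and 21.3 CPM on HFC. KO males did not overlap by diet, and in CT males 1 HFC liver, 417, lay within the CTD range. Trp53 rose by log2 0.41 in CT males (SE 0.11, adjusted p = 0.0133; 0.0602 without CT HFC 418) and by 0.39 in KO males (SE 0.11, adjusted p = 0.0118; 0.0527 without KO HFC 414). Female differences were of the same size, log2 0.44 in CT (SE 0.16, adjusted p = 0.148) and 0.45 in KO (SE 0.16, adjusted p = 0.0939), and did not pass. Neither female genotype overlapped by diet: CT livers lay at 16.6 to 18.8 CPM against 22.6 to 24.6 CPM, and KO livers at 17.1 to 18.1 CPM against 18.4 to 31.1 CPM.

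Gdf15 (chromosome 8, 70629393 to 70632456, - strand) encodes a secreted stress hormone that lowers food intake. CT males held 2.52, 13.6, 7.18 and 7.18 CPM on CTD, against 38.6, 29.1, 64.9 and 25.4 CPM on HFC. KO males held 9.94, 8.77, 8.82 and 18.7 CPM on CTD, against 26.9, 5.37, 20.8 and 25.8 CPM on HFC. All CT HFC livers were above all CT CTD livers, whereas KO HFC 415 lay below every KO CTD liver. Gdf15 rose 5.18-fold in CT males (95% interval 2.27 to 11.8, log2 2.37, SE 0.55, adjusted p = 0.00964), a call that held in 22 of 22 alternatives. In KO males log2 0.77 (SE 0.53) did not pass (adjusted p = 0.307). The difference between these diet effects was log2 -1.60 (SE 0.76, unadjusted p = 0.0543, adjusted p = 0.824), so a difference between genotypes was not shown.

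Female livers held more Gdf15 reads than male ones on CTD, 815 to 2276 counts against 51 to 382. The female and male tables were scaled separately, and sex and table cannot be told apart, so this stands without a test. In CT females Gdf15 ranged from 49.2 to 142 CPM on CTD and from 49.3 to 82.6 CPM on HFC. In KO females the ranges were 48.1 to 111 CPM and 22.9 to 107 CPM. Diets overlapped in both, at log2 -0.54 in CT (adjusted p = 0.624) and -0.18 in KO (adjusted p = 0.865).

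Trp53inp1 and Btg2 encode a p53 cofactor that also promotes autophagy and an antiproliferative protein that binds the deadenylase complex. Neither passed a diet test. Trp53inp1 (chromosome 4, 11156431 to 11174379, + strand) was higher on HFC in every CT male, 101 to 112 CPM against 66.3 to 94.3 CPM (log2 0.38, adjusted p = 0.299). In CT females every HFC liver was lower, 40.4 to 49.5 CPM against 59.5 to 79.1 CPM (log2 -0.61, adjusted p = 0.206). KO livers overlapped by diet in both sexes, with male KO HFC livers spread from 65.6 to 164 CPM. Btg2 (chromosome 1, 134075170 to 134079120, - strand) had negative diet differences in all 4 comparisons, from log2 -0.06 to -0.57, with adjusted p of at least 0.373, and in CT males the sign turned with library totals (0.18). Btg2 did not overlap in CT females, at 20.8 to 32.8 CPM on HFC against 33.3 to 50.4 CPM on CTD.

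Counting genes whose livers did not overlap by diet gives 3 of 10 in CT males and 4 of 10 in KO males, all higher on HFC. Of all tested genes 21.6% did not overlap in CT males (11.4% higher and 10.2% lower) and 30% in KO males (15.4% higher and 14.7% lower). In CT females 9 of 10 did not overlap, 7 higher and 2 lower, where the share of all genes was 28.3% (14.3% higher and 14.1% lower). In KO females 7 of 10 did not overlap, all higher, where it was 26.4% (12.2% higher and 14.1% lower). The 7 higher genes were Cdkn1a, Mdm2, Ccng1, Phlda3, Eda2r, Bax and Trp53 in each female genotype.

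Levels between genes were compared as CPM per kilobase of merged exons. In CT males on CTD the order was Ccng1 (13.5 ± 1.41), Trp53inp1 (12.6 ± 2.09), Bax (7.65 ± 1.61), Btg2 (5.99 ± 2.61), Mdm2 (5.81 ± 0.942), Trp53 (4.19 ± 0.441), Gdf15 (4.12 ± 2.47), Cdkn1a (2.54 ± 1.55), Phlda3 (0.518 ± 0.157) and Eda2r (0.160 ± 0.117), as mean ± SD with n = 4. Ccng1 and Trp53inp1 differed by less than their spread, as did the neighbours from Bax down to Mdm2 and from Trp53 to Cdkn1a. In CT females on CTD Gdf15 led at 49.8 ± 25.3 per kilobase (SD, n = 3), followed by Btg2 (14.8 ± 3.21), and Cdkn1a (0.632 ± 0.218), Phlda3 (0.601 ± 0.290) and Eda2r (0.0606 ± 0.0355) were lowest. On HFC in CT females Cdkn1a reached 3.63 ± 0.0798, Phlda3 2.02 ± 0.216 and Eda2r 0.421 ± 0.135 per kilobase, still the 3 lowest of the set.

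Loss of endothelial c-Myc was compared with control on each diet. By edgeR 0 of the 10 genes passed in males or females on either diet, and 0 passed the interaction of genotype and diet, where 0% of all tested genes passed. At an unadjusted p under 0.05 the counts among the 10 genes were 0 in all 3 male comparisons, 0 in females on CTD, 1 in females on HFC and 1 for the female interaction. Over all tested genes the same threshold took 949 (CTD), 653 (HFC) and 852 (interaction) of 14078 in males and 446, 311 and 546 of 13999 in females. DESeq2 and limma also called 0 of the 10 genes in each, while over all genes DESeq2 called 11, 3 and 5 in males (CTD, HFC, interaction) and 0 in females. The female gene on HFC was Eda2r, higher in KO by log2 0.96 (95% interval 0.12 to 1.80, unadjusted p = 0.0275) and the only one of the 10 without overlap there, where 5.46% of all genes had none (2.8% higher and 2.66% lower). The female interaction gene was Bax, whose diet difference was larger in KO by log2 0.66 (0.05 to 1.28, unadjusted p = 0.0372). On CTD, female Bax was lower in every KO liver than in every CT liver, the only such gene of the set, where 9.18% of all genes did not overlap (4.48% higher and 4.7% lower). In males none of the 10 separated by genotype, with 3.99% of all genes doing so on CTD (1.94% higher and 2.05% lower) and 2.17% on HFC (1.09% higher and 1.07% lower). Cdkn1a differed between genotypes by log2 0.87 in females on HFC (95% interval -0.17 to 1.92, adjusted p = 1), an interval that reaches from slightly lower to clearly higher in KO.

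Liver-to-liver variation within groups was then described against Cdkn1a, with group means removed on the log2 scale, for 9 relations in each table. Among 16 males Btg2 followed Cdkn1a (Pearson r = 0.75, Spearman rho = 0.71, permutation p = 0.00193 and 0.0038, Benjamini-Hochberg adjusted 0.0174 and 0.0342), and r was 0.65 without the 2 livers farthest from the median Cdkn1a, 298 and 301. Among 12 females Phlda3 followed Cdkn1a (r = 0.89, rho = 0.94, permutation p = 0.00238 for both, adjusted 0.0214), and r was 0.83 without 412 and 413. The other 8 relations in each table did not pass. Btg2 in females was at r = -0.57 and rho = -0.73 (permutation p = 0.174 and 0.0446, adjusted 0.261 and 0.136). Gdf15 was at r = 0.57 in males (permutation p = 0.0374, adjusted 0.168) and -0.71 in females (0.102, adjusted 0.261). The genes most like Cdkn1a by this measure, as a description, were Grn (r = 0.94), Jade2 (0.92) and Vcam1 (0.89) of 9585 genes in males, and Slc39a4 (0.92), Rasgef1b (0.92) and Kmt2a (0.90) of 9552 in females.

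**Figure D3:**
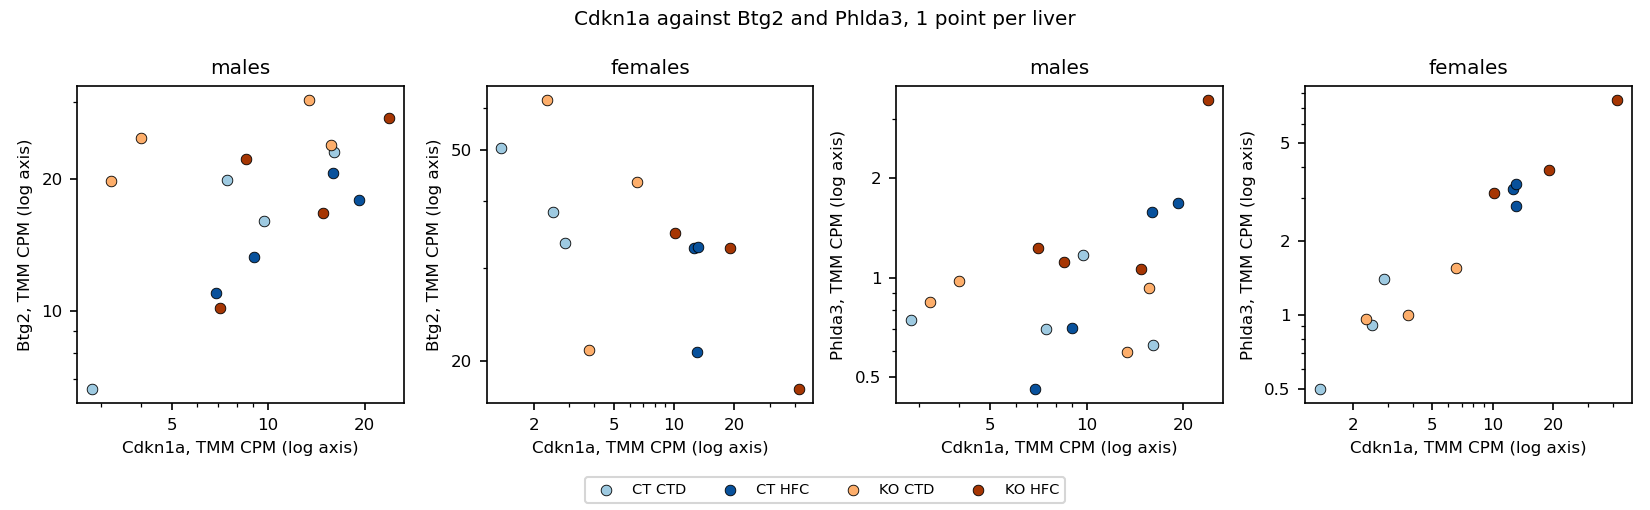
Btg2 (left pair) and Phlda3 (right pair) against Cdkn1a, all in TMM-scaled CPM on log axes, with 1 point per liver coloured by group, for males and females. Male Btg2 runs with Cdkn1a inside groups (r = 0.75 after group means are removed) and female Phlda3 does so with r = 0.89, while the female Btg2 points slope the other way (r = -0.57).

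A wider list of 32 other p53 target genes, all tested, was counted in the same fits. In CT males 11 rose and 1 fell with HFC (list median log2 0.19), and in KO males 9 rose and 1 fell (0.26). In CT females 2 rose and 1 fell (0.08), and in KO females 6 rose and 2 fell (0.49). With library totals the counts were 16 and 0, 16 and 0, 6 and 1, and 18 and 1, in the same order. With TMM factors 20%, 29.1%, 2.19% and 8.59% of all tested genes were called in either direction in these comparisons. Taken in either direction, 10 of 32 in KO males is near that background and is not read as a result about the list. By direction, 9 of 32 rose there beside 15.5% of all genes called higher, and 1 fell beside 13.6% called lower. These shares are no background for the counts with library totals, which called far more genes higher, as the last section gives.

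Which genes of that list moved is given for each comparison, with Sesn1 and Ei24 named after their values were seen. In CT males the smallest adjusted p values belonged to the DNA polymerase Polk (log2 0.57), the spindle protein gene Psrc1 (2.54), the kinase gene Plk2 (0.90) and the small GTPase gene Rap2b (0.78), and Sesn1, a stress-induced brake on mTORC1, fell by 0.36. On CTD Psrc1 averaged 0.157 CPM in CT and 0.280 CPM in KO males, under the male filter minimum of 0.447 CPM. It may have entered the test through its HFC livers, so its male difference and its part in the male counts are a description. In KO males they were the autophagy gene Dram1 (2.24), Rap2b (1.31), the BH3-only gene Pmaip1 (1.70) and the apoptosome gene Apaf1 (1.09), and Ei24 fell by 0.38. In CT females Zmat3, an RNA-binding splicing regulator, rose by log2 1.25 (SE 0.21, adjusted p = 0.00926) and the nuclease gene Aen by 0.80, and the kinase gene Plk3 fell by 1.08. In KO females Plk2 (1.42), Polk (0.87) and Zmat3 (0.92) rose, and Dcxr and Ei24 fell by 0.86 and 0.51.

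**Figure D4:**
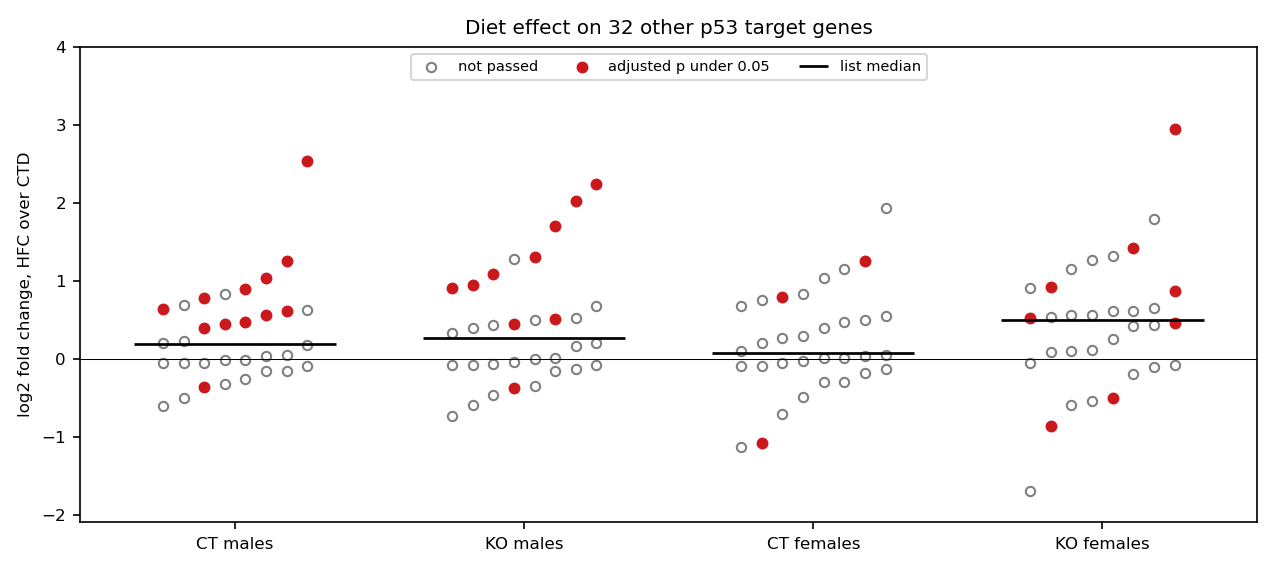
Log2 difference between HFC and CTD (y axis) for 32 other p53 target genes in the 4 comparisons (x axis). Each circle is 1 gene, red where the adjusted p was under 0.05, side to side placement has no meaning, and the bar is the list median, from 0.08 in CT females to 0.49 in KO females.

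Regulators of p53 such as its kinases and ubiquitin ligases formed the next list. Of 16 tested, 0 rose in any diet comparison, Atr, a DNA damage kinase, fell by log2 0.44 in CT males and Rfwd2, a ubiquitin ligase of p53, by 0.23 in KO males, and 0 passed in females. The list medians of -0.09, -0.10 and -0.04 in CT males, KO males and CT females turned positive with library totals, where 4, 8 and 0 genes rose. Library totals also raised the number of all tested genes called higher, as the last section gives. These counts are therefore not read as a result about the list. Of 8 tested genes for other cyclin-dependent kinase inhibitors and senescence markers, 1 rose in CT males and 1, Igfbp7, in KO males (log2 0.47). In females 0 passed. Over all tested genes 10.6% were called higher and 9.4% lower in CT males, and 15.5% and 13.6% in KO males. Counts this small are not read as a result about either list. Cdkn2a, which encodes p16 and p19ARF, was at 0 in 6 of 16 male and 4 of 12 female livers.

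For the next 4 lists, the shares of all tested genes called higher were 10.6% in CT males, 15.5% in KO males, 0.936% in CT females and 3.94% in KO females, and a count near its share is not read as a result about the list. The list of cell cycle genes came first. Of 25, 9 rose in CT males, 17 in KO males, 1 in CT females and 3 in KO females, and 0 fell, with list medians of log2 0.76, 1.29, 1.01 and 0.94. On CTD Ccnb1 averaged 0.240 and 0.208 CPM in CT and KO males, Bub1 0.203 and 0.0981 CPM and Plk1 0.416 and 0.364 CPM. All are under the male filter minimum of 0.447 CPM, and such genes may have entered the test through HFC livers. The male counts, with the 0 that fell, may be partly set by the filter and are a description. Which list genes passed through HFC livers alone was not examined. E2f1, a transcription factor of S phase entry, rose by 0.85 in CT males, 1.27 in CT females and 1.06 in KO females, and the replicative topoisomerase Top2a rose by 1.80 in KO males. In KO males E2f1 averaged 2.89 CPM on CTD and 4.99 CPM on HFC. In KO females Cdk1, the kinase that drives mitosis, rose by log2 2.06 in the same livers in which Cdkn1a rose. Of 12 BCL2 family genes, 4, 5, 0 and 3 rose in the same order, among them Bcl2a1b, a survival gene of leukocytes, at 2.82 in CT males and 2.75 in KO females. Bcl2a1b averaged 0.360 CPM in CT and 0.401 CPM in KO males on CTD, under the male filter minimum of 0.447 CPM. On HFC it averaged 2.61 CPM in CT and 3.89 CPM in KO males. It may have entered the test through HFC livers, so its male values are a description. Of 15 integrated stress response genes 5 rose in CT males, 3 rose and 1 fell in KO males, 1 rose in CT females and 4 rose and 1 fell in KO females. Chac1, a glutathione-degrading enzyme, rose by 0.95 in CT males, 1.41 in CT females and 0.92 in KO females. Of 14 immediate early genes 2, 3, 0 and 2 rose in this order, with Klf6 at 1.15 in CT males. In KO males Klf6 averaged 8.93 CPM on CTD and 29.4 CPM on HFC. Genes were named by smallest adjusted p, so a comparison left out for a gene is not one without a difference.

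Markers of other cell types were counted in the same fits. For these lists too, the shares of all tested genes called higher were 10.6% in CT males, 15.5% in KO males, 0.936% in CT females and 3.94% in KO females. Called lower were 9.4%, 13.6%, 1.26% and 4.65% in that order. A count near its share, as for endothelial markers in CT males and stellate cell markers in KO males, is not read as a result about the list. Of 9 macrophage and Kupffer cell markers 8 rose in CT males and 9 in KO males, and 0 passed in either female genotype, where all 9 had positive differences and the medians were log2 0.68 in CT and 0.73 in KO. Their summed level ranged over 330 to 512 CPM on CTD, against 691 to 1074 CPM on HFC in CT males, and over 285 to 337 and 860 to 1090 CPM in KO males. In females the ranges were 277 to 844 and 660 to 949 CPM in CT, and 282 to 762 and 523 to 1554 CPM in KO. Of 7 T, NK and B cell markers 4 rose in CT males, 7 in KO males and 0 in females, and Cd3e was at 0 in 1 female liver. The list medians of these lymphocyte markers were log2 0.99 and 1.54 in CT and KO males and 0.95 and 0.34 in CT and KO females. Of 4 neutrophil markers 3 rose in CT males, 4 in KO males and 0 in females, while all 4 had positive differences in each comparison. Their medians were log2 1.59 and 1.85 in CT and KO males and 1.70 and 2.18 in CT and KO females. Their summed level in females was 6.66 to 22.9 CPM on CTD, against 16.4 to 59.8 CPM on HFC in CT, and 6.84 to 19.5 against 17.0 to 57.9 CPM in KO. In males Retnlg, a neutrophil marker, averaged 0.256 CPM in CT and 0.173 CPM in KO on CTD, against 0.718 and 0.696 CPM on HFC. Cd3e averaged 0.482 and 0.146 CPM on CTD, against 0.823 and 0.972 CPM on HFC. Retnlg in CT and KO and Cd3e in KO lay under the male filter minimum of 0.447 CPM on CTD. Such markers may have entered the test through HFC livers, so their part in the male counts and medians is a description. Of 5 hepatocyte markers 1 fell in each male genotype (Serpina1c, by log2 0.87 and 0.94), 0 in CT females and 2 in KO females (Serpina1c by 1.19 and Alb by 0.74). Their sum was 155787 to 159258 CPM on CTD, against 87035 to 135696 CPM on HFC in CT females, and 142569 to 167119 and 93062 to 105770 CPM in KO females. In males it was 65085 to 97578 CPM on CTD, against 64092 to 80142 CPM on HFC in CT, and 84491 to 104400 and 66670 to 77636 CPM in KO. Endothelial markers rose in 1 of 7 cases in CT males, 3 in KO males and 0 in females. Their summed level in CT males was 180 to 225 CPM on CTD and 169 to 264 CPM on HFC. In KO males it was lower on CTD, at 133 to 180 CPM, and 166 to 221 CPM on HFC. The endothelial list medians were log2 -0.06 and 0.20 in CT and KO males, the former turning to 0.16 with library totals, and 0.54 and 0.36 in CT and KO females. Cholangiocyte markers rose in 0 of 5 cases in CT males, 3 in KO males and 0 in females, and stellate cell markers in 0 of 6, 1 and 0. Their part in the diet differences of the p53 genes was not tested.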

How the data were processed

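RNA from 28 livers was sequenced on a BGI DNBSEQ platform, per the labels' protocols. The authors deposited raw read counts as whole numbers and, in separate tables, CPM values, for males and females apart and with 1 column per mouse. The deposited CPM equal the deposited count over the library total, within 1e-04 CPM in 100% of values. FastQC, edgeR and GRCm38 (mm10) are named in the submitters' processing notes. Aligner, counting program and strand setting: not given in the sources used here.

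The deposited counts were analysed here with edgeR 4.0.16 in R 4.3.3, each sex on its own with a mean per group: TMM factors, filterByExpr, robust quasi-likelihood F tests and Benjamini-Hochberg adjustment over 14078 genes in males and 13999 in females. An adjusted p under 0.05 was called. The SE is the log2 difference over the square root of F. Alternatives were library totals, RLE size factors, no filter, DESeq2 1.42.0, limma 3.58.1, fits of only the compared groups and each mouse left out. The steps were tested on simulated counts. Correlations used log2 CPM (prior count 2) and 100000 permutations within groups. Positions are from GENCODE M21 (GRCm38), counted from 1, and promoter sequences from RefSeq (GRCm38.p6).

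All 10 genes are named, with up to 4 called genes of each other list by adjusted p and the 3 genes most like Cdkn1a with a mean of at least 5 CPM. The genes and the 14 lists (169 entries, 1 of them in neither table, 5 genes in 2 lists) were chosen with earlier results of these data known. A result for 1 gene of these lists is not reported here.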

Additional observations from a re-analysis of the deposited data

Results flagged for a closer look

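In 40 groups of 4 male livers, 1 for each gene and group, the highest or lowest liver was compared with its neighbours by Dixon's ratio at its 95% critical value. Chance alone marks about 1 in 20 such groups, and 3 were marked. Gdf15 stood at 18.7 CPM in KO CTD 311, with the other 3 livers of that group between 8.77 and 9.94 CPM. Phlda3 stood at 3.42 CPM in KO HFC 414, with the others between 1.06 and 1.23 CPM. Eda2r stood at 8.01 CPM in CT HFC 543, with the others between 2.35 and 3.05 CPM. Groups of 3 females were not examined this way.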

How the results depend on the processing

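The number of the 10 genes called for diet depended on the setting in all 4 comparisons. In KO males it was 3, 6 with library totals and 1 to 3 with a mouse left out (1 without KO HFC 414). In CT females it was 3, 7 with library totals, 5 with DESeq2, 2 with no filter and 6 when only the compared groups were fitted. With a mouse left out it was 0 to 5: 0 without CT CTD 308, CT HFC 420 or CT HFC 510, 1 without CT CTD 306, CT CTD 318 or KO CTD 307, and 5 without KO HFC 412. In KO females it was 6, 7 with library totals and 5 with RLE size factors, with no filter or with limma. It was 3 when only the compared groups were fitted and 3 to 7 with a mouse left out (3 without KO CTD 317). In CT males it was 4, 6 with library totals, 5 with DESeq2 or when only the compared groups were fitted and 3 to 5 with a mouse left out. Over all genes library totals turned the split of higher and lower calls from 1497 and 1323 to 4125 and 410 in CT males, from 2184 and 1918 to 5581 and 511 in KO males, from 131 and 176 to 1682 and 145 in CT females and from 551 and 651 to 3357 and 380 in KO females. Counts of 0 for genotype and interaction stayed at 0 in each alternative run. The sign turned for uncalled values: Btg2 in CT males with library totals (0.18), limma (0.035) and a mouse left out (-0.32 to 0.15), Trp53inp1 in KO males with limma (-0.073) and a mouse left out (-0.22 to 0.21), Gdf15 in KO females with library totals (0.10) and a mouse left out (-0.62 to 0.24), and Trp53inp1 in KO females with a mouse left out (-0.54 to 0.10, positive without KO CTD 309). The cause was not tested. Of 53 further genotype and interaction values, none near a call, 28 changed sign under at least 1 alternative and 0 were called. No paired analysis was possible because every mouse has its own number. With 3 or 4 mice a group, an uncalled difference is not shown to be absent, since any size within its interval remains possible. Low counts limit Eda2r and Phlda3.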
